A study of Mus musculus with 36 samples.

Results

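Adipocyte transcription factors were followed through epididymal white adipose tissue (eWAT) of mice that differed in genotype, diet and oral ligature. They were 9 of the 24750 genes in the table, taken by name: *Pparg*, *Cebpa*, *Cebpb*, *Cebpd*, *Klf15*, *Rxra*, *Ebf1*, *Zfp423* and *Nr1h3*. Each symbol matched 1 Ensembl gene, and all 9 genes passed the filter on low values, which asked for a level of 1 or more in 3 or more of the 36 libraries. Levels are in normalized CPM, reads of a gene scaled to the library's total by edgeR. The study made RNA-seq libraries from the eWAT of 36 male mice in 12 groups of 3, to ask how adipose expression changed with the chemokine CCL19, dietary fat and experimental periodontitis. CCL19-KI mice carried *Ccl19* knocked into the *Adipoq* locus, so that the adiponectin promoter drives it in adipocytes, as a homozygous line with *Adipoq* itself left undisrupted. Wild-type (WT) mice were C57BL/6 and were bred apart from that line, so the transgene and the separate breeding of the colonies cannot be told apart. Mice of each genotype were fed a normal diet (ND), a high-fat diet with 40% fat (40% HFD) or one with 60% fat (60% HFD) for 10 weeks. In 18 of the 36 a ligature, the standard way to start periodontitis in mice, had been placed at 14 weeks of age after 8 weeks of feeding.

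Fat cells are made from progenitors by a cascade of transcription factors. *Cebpb* and *Cebpd* act early and help to switch on *Pparg* and *Cebpa*, which then maintain each other and the genes of the mature adipocyte. PPARγ is a nuclear receptor for fatty acid ligands and binds DNA as a heterodimer with RXRα, the product of *Rxra*, which is also the partner of the oxysterol receptor LXRα, the product of *Nr1h3*. *Zfp423* and *Ebf1* mark commitment to the adipocyte lineage, and *Klf15* is a glucocorticoid-responsive Krüppel-like factor of fat, liver and muscle. Several of these factors, *Cebpa*, *Cebpb*, *Klf15*, *Rxra* and *Nr1h3* among them, are also well expressed in liver.

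Positions are given in the GRCm38 build. *Pparg* (ENSMUSG00000000440) is at chr6:115360951-115490399 on the + strand, and *Klf15* (ENSMUSG00000030087) is on the same chromosome at chr6:90462576-90475238, also on the + strand. *Rxra* (ENSMUSG00000015846, chr2:27676440-27762957, + strand), *Cebpb* (ENSMUSG00000056501, chr2:167688915-167690418, + strand) and *Nr1h3* (ENSMUSG00000002108, chr2:91184061-91202834, - strand) are on chromosome 2. *Cebpa* (ENSMUSG00000034957) is at chr7:35119293-35121928 and *Cebpd* (ENSMUSG00000071637) at chr16:15887286-15891031, both on the + strand. *Ebf1* (ENSMUSG00000057098) is at chr11:44617317-45008091 on the + strand and *Zfp423* (ENSMUSG00000045333) at chr8:87661810-87959595 on the - strand. The exons of *Cebpd* share 562 bases with *Spidr*, those of *Cebpb* 312 bases with *Tmem189* and those of *Cebpa* 51 bases with *Gm45091*, each on the opposite strand. The kit kept the strand of each read, but whether the counting used it is not given in the sources used here, so part of these values is uncertain.

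The 250 bases before the annotated start are shown for the genes whose levels carry most of what follows. *Pparg* is given at both its first start and its farthest downstream start, since the table holds 1 value for all its transcripts, *Cebpa* because it differed by genotype, and *Klf15* because its level ranged most widely. RefSeq, in GRCm38.p6, held starts for 8 of the 9 genes, 14 starts in all, and *Cebpd* was not matched. Capitals mark matches on either strand to CCAAT, to the GC box GGGCGG or to a loose C/EBP site written TTGCNNAA. They also mark the nuclear receptor core site AGGTCA, the E-box CACGTG and TATAAA. These motifs can overlap each other, and a distance is that from a match's first base to the start.
Pparg, first start, chr6:115360894-115361143, + strand: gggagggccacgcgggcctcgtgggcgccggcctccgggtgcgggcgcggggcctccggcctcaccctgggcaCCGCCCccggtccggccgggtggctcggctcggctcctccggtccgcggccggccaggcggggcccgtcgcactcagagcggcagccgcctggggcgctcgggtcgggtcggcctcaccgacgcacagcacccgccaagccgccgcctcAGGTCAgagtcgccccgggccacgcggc
Pparg, downstream start, chr6:115421816-115422065, + strand: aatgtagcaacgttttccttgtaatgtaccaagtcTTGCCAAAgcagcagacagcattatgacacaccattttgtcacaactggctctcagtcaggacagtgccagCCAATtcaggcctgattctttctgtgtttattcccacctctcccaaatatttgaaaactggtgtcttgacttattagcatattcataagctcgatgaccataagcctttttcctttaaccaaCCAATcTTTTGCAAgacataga
Cebpa, chr7:35119043-35119292, + strand: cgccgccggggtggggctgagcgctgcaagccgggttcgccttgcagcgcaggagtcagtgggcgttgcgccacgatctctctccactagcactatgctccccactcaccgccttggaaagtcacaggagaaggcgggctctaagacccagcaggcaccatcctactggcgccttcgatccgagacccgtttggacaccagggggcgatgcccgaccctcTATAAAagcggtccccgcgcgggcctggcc
Klf15, chr6:90462326-90462575, + strand: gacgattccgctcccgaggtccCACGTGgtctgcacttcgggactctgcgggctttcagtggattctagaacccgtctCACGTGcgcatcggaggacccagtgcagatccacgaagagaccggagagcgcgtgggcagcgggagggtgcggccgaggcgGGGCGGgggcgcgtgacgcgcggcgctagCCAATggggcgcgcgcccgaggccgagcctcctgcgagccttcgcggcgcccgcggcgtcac
The first *Pparg* start held a GC box 177 bases and an AGGTCA 28 bases upstream, whereas the downstream start held CCAAT at 144 and 22 bases and TTGCNNAA at 215 and 16 bases. The *Cebpa* sequence held TATAAA at 30 bases and no other searched motif. The *Klf15* sequence held CACGTG at 228 and 172 bases, GGGCGG at 91 and CCAAT at 62. Of 32851 mouse promoters of the same length, 33.8% held CCAAT, 32.7% GGGCGG, 14% AGGTCA, 12.4% TATAAA, 9.56% TTGCNNAA and 6.02% CACGTG. These are matches of letters, and no binding was measured.

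The targeted gene set 2 libraries apart from their labels. *Ccl19* was 5.57 to 34.6 normalized CPM (median 16.4) in 17 of the 18 libraries labelled CCL19-KI and 0.507 to 4.51 (median 1.21) in 17 of the 18 labelled WT. The library labelled WT, ND, no ligature, replicate 2 read 19.2, and the library labelled CCL19-KI, 60% HFD, no ligature, replicate 3 read 0.687. *Gm2564*, a predicted gene picked after its values were seen because it split the genotypes, read 41.9 in the first of these and 0 in the second, against 0 to 0.160 in the other WT-labelled and 11.6 to 108 in the other CCL19-KI-labelled libraries. Both libraries keep their labels below, and each call of a factor is given with all 36 libraries and then without these 2, which leaves 2 mice in each of their groups. The second way, 7.21% of the 17852 genes tested differed between the genotypes, and with all libraries 0.459% did.

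The libraries held 11962228 to 21581595 reads in genes. The tissue label fitted its markers, since all 10 adipocyte markers had reads in every library (summed level 4993 to 25803 normalized CPM). Genes of other organs were also present. The mean log2 level of 10 hepatocyte markers was 5.29 to 11.2 in 30 libraries and 1.72 to 2.24 in 6, namely all 3 unligatured ND-fed WT libraries, 2 of the ligatured ND-fed CCL19-KI libraries and the library labelled CCL19-KI, 60% HFD, no ligature, replicate 3. Epididymis markers reached a mean log2 level of 9.26 in the library labelled WT, ND, no ligature, replicate 2 and 7.64 in the library labelled CCL19-KI, 60% HFD, no ligature, replicate 2. In bulk tissue, fewer cells of a type and less RNA per cell cannot be told apart.

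All 9 factors were expressed in all 36 libraries, and *Cebpa* was the most abundant. Per kilobase of gene model, the median level over the libraries was 98.1 normalized CPM for *Cebpa*, 37.1 for *Rxra*, 33.8 for *Pparg*, 28.6 for *Nr1h3*, 22.0 for *Klf15*, 12.3 for *Cebpd*, 8.84 for *Ebf1*, 6.99 for *Zfp423* and 6.11 for *Cebpb*. Below, levels are normalized CPM without the division by length. *Klf15* spanned the widest range, from 18.8 to 282, a ratio of 15.1, and *Ebf1* the narrowest, from 33.7 to 149, a ratio of 4.42. Unligatured CCL19-KI mice on 60% HFD had the lowest group mean for 7 of the 9 genes, all but *Cebpd* and *Zfp423*. With each gene's 12 groups put in order of their means, neighbouring groups overlapped nearly throughout. The exceptions were 1 of 11 neighbouring pairs for each of *Cebpa* (unligatured CCL19-KI mice, 40% HFD above ND), *Cebpd* (ligatured ND-fed mice, WT above CCL19-KI) and *Klf15* (unligatured WT mice on ND above unligatured CCL19-KI mice on 60% HFD).

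The nuclear receptors were highest in WT mice. The group mean of *Pparg* (± SD, n = 3 throughout) was highest in ligatured ND-fed WT mice, at 213 ± 79.1 normalized CPM, and lowest in unligatured CCL19-KI mice on 60% HFD, at 51.0 ± 12.6. *Rxra* ran from 109 ± 44.1 in that last group to 397 ± 244 in unligatured WT mice on 40% HFD, and *Nr1h3* from 31.9 ± 8.15 to 87.4 ± 22.4 in ligatured WT mice on 40% HFD. The large SD of *Rxra* came from 1 mouse at 672 beside 203 and 318, in the library with a mean log2 hepatocyte level of 11.1. Among the C/EBP factors, *Cebpa* ran from 94.8 ± 36.9 to 343 ± 52.4 in ligatured CCL19-KI mice on 40% HFD, and *Cebpb* from 4.00 ± 2.14 to 16.0 ± 9.38 in unligatured WT mice on 60% HFD. *Cebpd* had its lowest mean, 31.2 ± 11.0, where *Cebpb* had its highest. The same library that was high in *Rxra* also held the highest *Klf15* value, 282, so that unligatured WT mice on 40% HFD had a mean of 161 ± 108 for this gene. The commitment factors differed from each other. *Ebf1* was highest in ligatured CCL19-KI mice on 40% HFD, at 128 ± 24.4, and *Zfp423* in unligatured ND-fed WT mice, at 66.7 ± 11.9, while its lowest mean, 19.4 ± 15.1, was in unligatured ND-fed CCL19-KI mice.

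**Figure D1:**
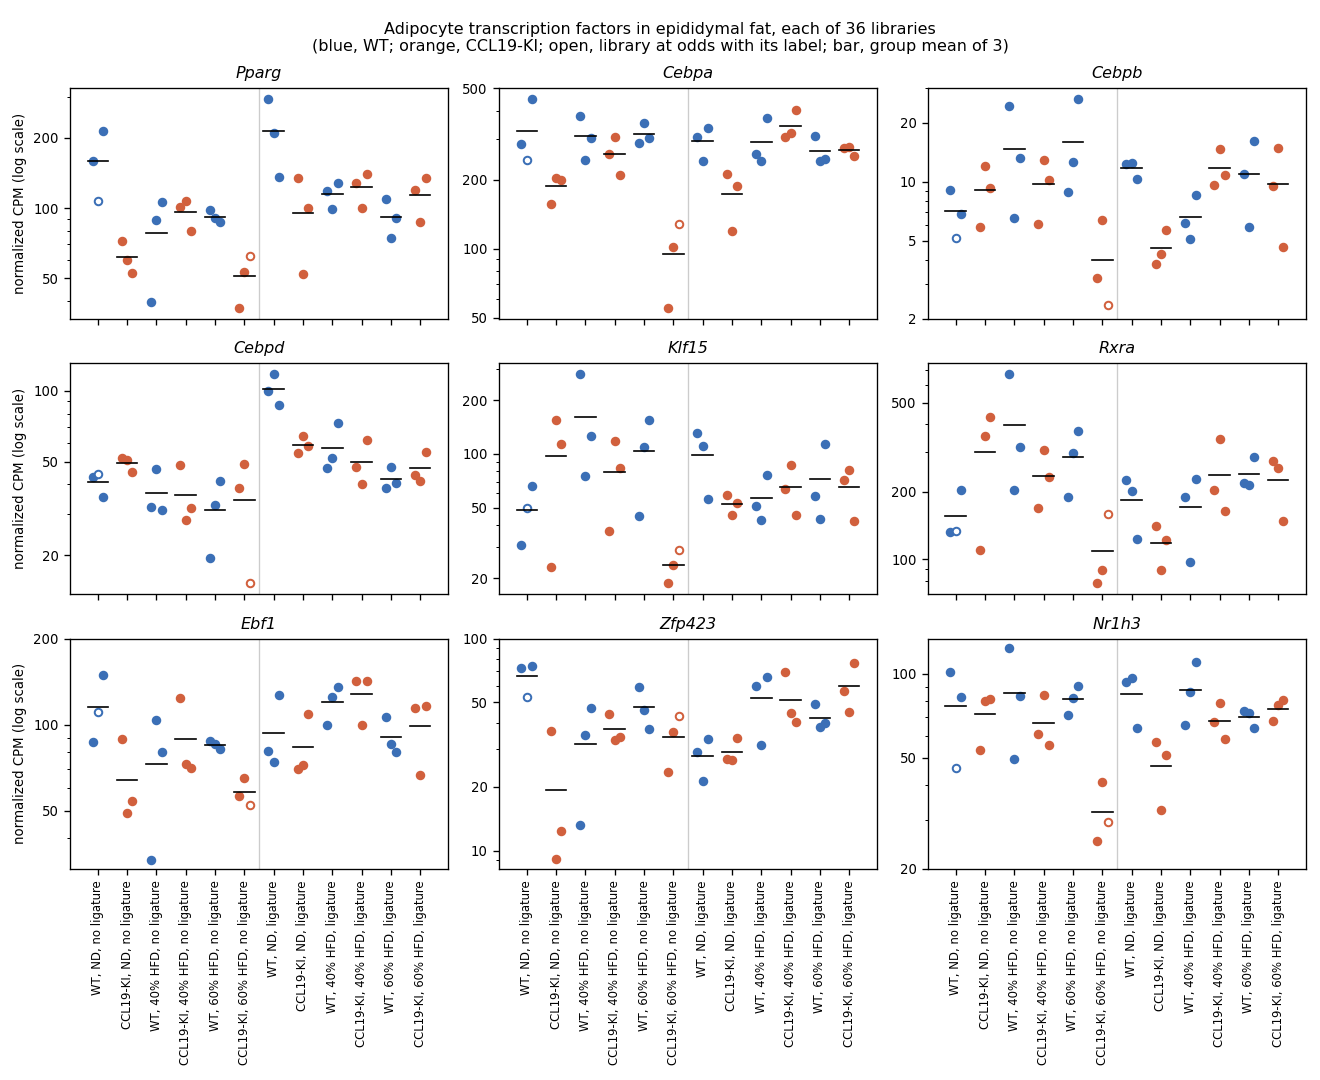
Level of each of the 9 factors in every library, in normalized CPM on a log axis, for the 12 groups of 3 mice; points are libraries, bars are group means, and open points are the 2 libraries whose *Ccl19* went against their labels. *Pparg* reaches 294 in ligatured ND-fed WT mice and falls to 37.3 in unligatured CCL19-KI mice on 60% HFD, and *Cebpd* stands highest in ligatured ND-fed WT mice, at 87.2 to 118.

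Diet was compared first, over 12 mice per diet across both genotypes with and without ligature. *Cebpd*, an early C/EBP factor, was lower on 60% HFD than on ND, and *Pparg* was lower by a margin that only just passed the test. No factor passed for 40% HFD against ND or for 60% against 40% HFD. On ND, *Cebpd* ranged from 35.4 to 118 normalized CPM and on 60% HFD from 15.2 to 55.0. In unligatured WT mice it was 43.1, 44.1 and 35.4 on ND and 19.5, 32.8 and 41.4 on 60% HFD. In ligatured WT mice it was 99.98, 118 and 87.2 on ND and 38.5, 47.5 and 40.5 on 60% HFD, with no overlap. In ligatured CCL19-KI mice it was 54.3, 64.2 and 58.1 on ND and 43.9, 41.4 and 55.0 on 60% HFD, which overlapped by 1 mouse. In unligatured CCL19-KI mice it was 51.7, 50.8 and 45.2 on ND and 38.6, 48.7 and 15.2 on 60% HFD, again with overlap. The averaged log2 difference of *Cebpd* was -0.67 (SE 0.15, 95% interval -0.97 to -0.37, limma adjusted p = 0.00345), a fold of 0.629.

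*Pparg* fell by 0.46 on the log2 scale on 60% HFD (SE 0.16, limma adjusted p = 0.0499, fold 0.726). Its highest values were in ligatured ND-fed WT mice, at 294, 210.4 and 136 normalized CPM, against 109.6, 74.4 and 91.0 in the matching mice on 60% HFD. In unligatured WT mice the values were 159, 107 and 214 on ND and 98.0, 90.8 and 87.3 on 60% HFD. WT mice thus did not overlap between these diets in either ligature state. In ligatured CCL19-KI mice the values were 135, 52.2 and 99.8 on ND and 120.1, 87.7 and 135 on 60% HFD, and in unligatured ones 72.1, 59.9 and 52.8 on ND and 37.3, 53.4 and 62.3 on 60% HFD, with overlap in both. The *Pparg* call was lost in 18 of the 24 fits that left out 1 of these mice, with adjusted p up to 0.098, and *Cebpd* kept its call in all 24.

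Thus 2 of 9 factors were called lower and 0 higher on 60% HFD, where 18.6% of all genes tested were called, 8.4% lower and 10.2% higher, and the factors' median log2 difference was -0.13 beside 0.01 over all genes. The same 2 factors were called without the 2 libraries at odds with their labels, *Cebpd* at -0.53 (limma adjusted p = 0.00714) and *Pparg* at -0.57 (adjusted p = 0.0276), where 6.55% of genes were lower. *Zfp423* had a log2 difference of 0.52 (adjusted p = 0.065). For 40% HFD against ND, limma and edgeR each called 0 of 9 against 9.21% of all genes (5.36% higher and 3.85% lower). By limma 2 factors had an unadjusted p under 0.05, as had 4739 of the 17852 genes tested. They were *Cebpd* at -0.43 (limma adjusted p = 0.0602) and *Cebpa* at 0.35 (adjusted p = 0.0903). In that comparison *Cebpd* was called without the 2 libraries, at -0.42 (limma adjusted p = 0.0335), where 3.3% of genes were lower. For 60% against 40% HFD both tools called 0 of 9, against 0.745% of genes (0.465% higher and 0.28% lower). By limma 1 factor had an unadjusted p under 0.05, as had 2356 of the 17852 genes. That factor was *Cebpa*, at -0.48 (limma adjusted p = 0.078), or -0.54 (adjusted p = 0.0259, with 0.476% of genes lower) without the 2 libraries. Hepatocyte markers moved with diet, 8 of 10 being higher on each HFD than on ND, and ran from a sum of 132 to 35080 normalized CPM on ND and from 1034 to 46185 on 60% HFD. With the hepatocyte level as a covariate *Cebpd* stood at -0.72 (limma adjusted p = 0.00856) and *Pparg* at -0.51 (limma adjusted p = 0.0949) for 60% HFD against ND. Also for that comparison, 2 of 8 macrophage markers were higher and 1 lower, and 3 of 6 kidney tubule markers were higher. Lower were 2 of 5 mesothelial markers and 1 of 5 skeletal muscle markers. Among the adipocyte markers *Aqp7* was higher. Without the 2 libraries, 1 of 10 adipocyte markers was higher and 1 lower, and 1 of 10 progenitor markers was higher. The part of these cells was not tested.

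**Figure D2:**
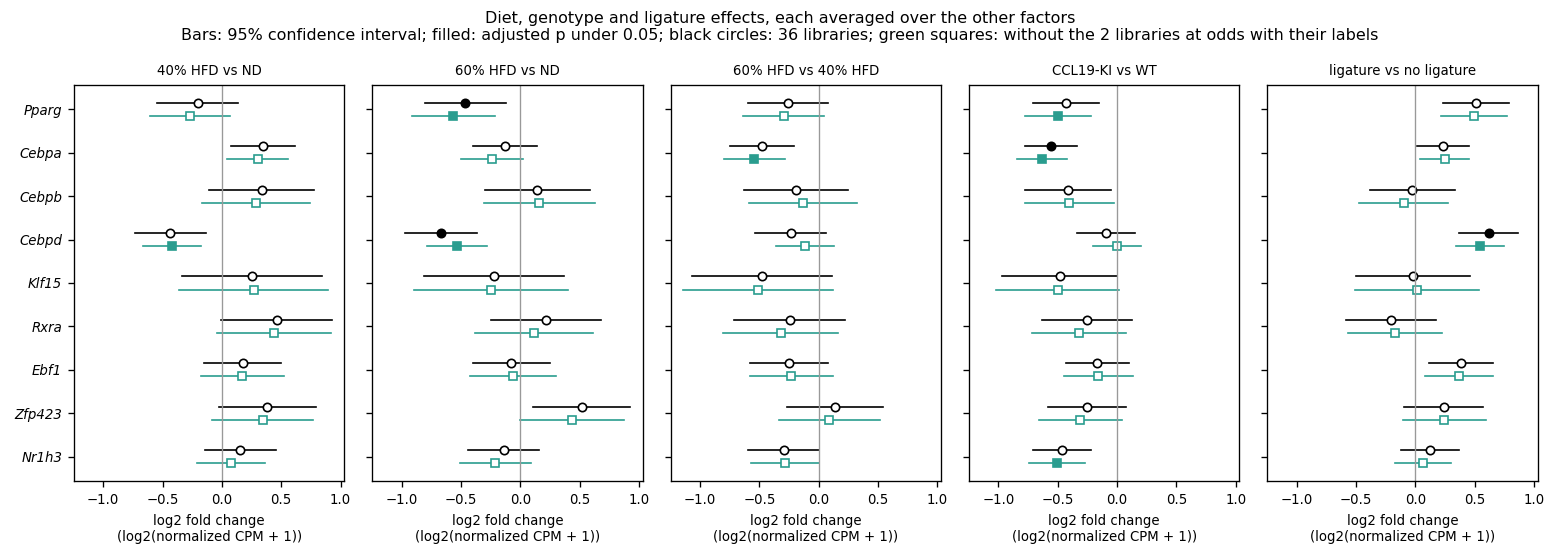
Log2 difference of each factor for the diet, genotype and ligature comparisons averaged over the other factors of the design, with 95% intervals; circles are fits on all 36 libraries, squares are fits without the 2 libraries at odds with their labels, and filled symbols passed a limma adjusted p of 0.05. *Cebpd* lies below 0 for 60% HFD against ND (-0.67) and above 0 for ligature (0.62), and *Cebpa* lies below 0 for CCL19-KI against WT (-0.56).

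*Cebpa*, which maintains the differentiated state together with *Pparg*, was the factor called between the genotypes when averaged over diet and ligature. Its averaged log2 difference, CCL19-KI minus WT, was -0.56 (SE 0.11, limma adjusted p = 0.0116), a fold of 0.68 over 18 mice of each genotype. The difference was not lower in every state. On ND, 40% HFD and 60% HFD it was -0.76, -0.25 and -1.80 without ligature and -0.79, 0.25 and 0.02 with ligature. *Cebpa* was 1 of 9 factors called lower, against 0.174% of all genes tested, and 0 were called higher, against 0.286%. The log2 difference was below 0 for all 9 factors, with a median of -0.41 beside -0.02 over all genes. An unadjusted p under 0.05 was found for 5 of the 9, and for 3021 of the 17852 genes tested. *Nr1h3* stood at -0.46 (adjusted p = 0.0712) and *Pparg* at -0.43 (adjusted p = 0.118). With the 2 libraries at odds with their labels left out, 3 of 9 were called lower, against 3.74% of genes. These were *Cebpa* at -0.63 (limma adjusted p = 0.000905), *Nr1h3* at -0.51 (adjusted p = 0.0135) and *Pparg* at -0.50 (adjusted p = 0.0307). The *Cebpa* call was lost without the 4 libraries highest in hepatocyte markers (-0.51, limma adjusted p = 0.202) and with both the adipocyte and hepatocyte levels as covariates (-0.44, adjusted p = 0.106). No marker list had a gene called between the genotypes, with or without the 2 libraries. *Adipoq*, at the knock-in locus, ranged from 300.1 to 1246 normalized CPM in the libraries labelled CCL19-KI and from 615 to 3937 in those labelled WT.

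The genotype difference was then read within each diet and ligature state, where its estimates had different sizes. Direct tests of such a change are given further below. In unligatured mice on ND, *Zfp423*, a zinc finger factor of preadipocyte commitment, and *Pparg* were much lower in CCL19-KI than in WT mice, and *Cebpa* was lower. *Zfp423* was 36.7, 9.13 and 12.4 normalized CPM with the knock-in, against 72.6, 53.0 and 74.5 without it. The groups did not overlap, and the log2 difference was -1.96 (SE 0.40, limma adjusted p = 0.00451), a fold of 0.257. *Pparg* was 72.1, 59.9 and 52.8 with the knock-in (mean 61.6 ± 9.74, SD, n = 3) against 159, 107 and 214 in WT mice (mean 159.9 ± 53.3, SD, n = 3). These groups did not overlap either, with a log2 difference of -1.32 (SE 0.33, limma adjusted p = 0.0113). *Cebpa* was 157, 204 and 199 with the knock-in, against 285, 244 and 451 in WT mice, again without overlap, and differed by -0.76 (SE 0.26, limma adjusted p = 0.0466). *Ebf1*, at 89.1, 49.3 and 54.2 against 87.0, 110.3 and 149, overlapped by 1 mouse of each group and did not pass (-0.85, limma adjusted p = 0.0637).

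In this comparison 3 of 9 factors were called lower and 0 higher, where 16.6% of all genes were called, 9.63% lower and 6.92% higher. Without the library labelled WT, ND, no ligature, replicate 2 and the other at odds with its label, the same 3 were called, *Zfp423* at -2.11 (limma adjusted p = 0.00382), *Pparg* at -1.58 (adjusted p = 0.00559) and *Cebpa* at -0.95 (adjusted p = 0.0184), where 12.2% of genes were lower. *Rxra* and *Klf15* pointed the other way without passing. *Rxra* was 110.0, 356 and 433 with the knock-in, against 132, 133 and 203 in WT mice, so that 2 of the CCL19-KI libraries lay above all 3 WT libraries and the third below them (0.75, limma adjusted p = 0.251). *Klf15* had the same layout, at 23.1, 155 and 114 against 30.6, 49.5 and 66.0 (0.67, limma adjusted p = 0.426). The 2 CCL19-KI libraries with the high values had mean log2 hepatocyte levels of 10.8 and 11.0, and the third had 5.43.

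Marker levels differed in this comparison. Of the 10 hepatocyte markers 9 were higher in CCL19-KI mice, with sums of 1192 to 35080 normalized CPM against 132 to 1541, and none was at 0 in all libraries. Of the 10 adipocyte markers 4 were lower, with sums of 6195 to 15958 against 14309 to 23096. All 4 exocrine pancreas markers were higher, with sums of 0.142 to 68.4 against 0 to 0.163. These 3 counts were the same without the 2 libraries. Also, 1 of 8 macrophage markers was lower (3 of 8 without the 2 libraries), 1 of 10 progenitor markers was higher with and without them (both ways) and 1 of 5 mesothelial markers was higher (0 of 5 without them). With the adipocyte level as a covariate 0 of 9 factors were called by limma, *Zfp423* standing at -1.001 (adjusted p = 0.098) and *Pparg* at -0.55 (adjusted p = 0.259). With the hepatocyte level as a covariate 0 were called as well, *Pparg* standing at -1.44 (adjusted p = 0.085). The part of these cell types in the result was not tested further. Leaving out single mice ended the *Cebpa* call in 5 of 6 fits (adjusted p up to 0.233), the *Pparg* call in 3 of 6 (up to 0.0699, without WT replicate 3 or CCL19-KI replicate 2 or 3) and the *Zfp423* call in 1 of 6 (0.0527, without CCL19-KI replicate 2).

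In unligatured mice on 60% HFD, *Cebpa* was again lower in CCL19-KI mice, with 4 other factors. *Cebpa* was 55.0, 101 and 128 normalized CPM with the knock-in, against 288, 354 and 304 in WT mice. The highest CCL19-KI value was under the lowest WT value, and the log2 difference was -1.80 (SE 0.26, limma adjusted p = 0.000845), a fold of 0.287. *Nr1h3*, the oxysterol receptor, was 25.2, 41.0 and 29.4 against 71.3, 81.8 and 90.6. It did not overlap either and differed by -1.35 (SE 0.29, limma adjusted p = 0.00637). *Cebpb* was 3.24, 6.42 and 2.36 against 8.85, 12.6 and 26.6, without overlap, and differed by -1.71 (SE 0.43, limma adjusted p = 0.0126). *Klf15* was 18.8, 23.9 and 28.8 against 45.0, 109.9 and 155 and differed by -1.92 (SE 0.57, limma adjusted p = 0.0251). *Rxra* was 78.0, 89.3 and 159 against 189.6, 297 and 373 and differed by -1.41 (SE 0.45, limma adjusted p = 0.0352). Both sets of 3 mice were separate for *Klf15* and for *Rxra*. *Pparg* was 37.3, 53.4 and 62.3 (mean 51.0 ± 12.6, SD, n = 3) against 98.0, 90.8 and 87.3, and although it did not overlap it did not pass (-0.87, limma adjusted p = 0.0687).

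Thus 5 of 9 factors were called lower and 0 higher, where 16.8% of all genes were called, 8.06% lower and 8.73% higher. In 7 of 9 every CCL19-KI mouse lay below every WT mouse, as it did for 16.3% of all genes, and in 8 of 9 without the 2 libraries, as for 27.1% of genes. Leaving out the 2 libraries at odds with their labels, 6 of 9 were called lower, against 8.25% of genes, *Pparg* joining at -1.02 (limma adjusted p = 0.0473) and *Cebpa* reaching -2.06 (adjusted p = 4.36e-05). *Cebpd* stood at 0.04 (95% interval -0.56 to 0.64) and, without the 2 libraries, at 0.53 (95% interval -0.0086 to 1.06), since the library labelled CCL19-KI, 60% HFD, no ligature, replicate 3 read 15.2 beside 38.6 and 48.7 in the others of its group. Of the 10 hepatocyte markers 10 were lower in CCL19-KI mice, or 1 of 10 without the 2 libraries, with sums of 1034 to 1807 normalized CPM against 11531 to 46185 in WT mice. Of the 4 epididymis markers tested 2 were higher both ways, with sums over the whole list of 292 to 9553 against 0.154 to 0.201. All 4 germ cell markers were higher both ways, with sums of 8.51 to 548 against 0 to 0.067, and 3 of 6 kidney tubule markers were lower (2 of 6 without the 2 libraries). Adipocyte sums were 8281 to 10630 against 13546 to 16270, with 0 of 10 markers called by limma, or 4 of 10 called lower without the 2 libraries. With the hepatocyte level as a covariate *Cebpa* alone of the 9 was called, at -1.62 (limma adjusted p = 0.025). With the adipocyte level as a covariate 5 factors were called, at -1.63 for *Cebpa*, -2.27 for *Cebpb*, -2.62 for *Klf15*, -1.48 for *Nr1h3* and -1.83 for *Rxra*. The part of hepatocyte, epididymis, germ cell or kidney RNA was not tested beyond these fits. Leaving out single mice kept the *Cebpa* and *Nr1h3* calls in all 6 fits and ended those of *Rxra* in 4 (adjusted p up to 0.149, without WT replicate 2 or 3 or CCL19-KI replicate 1 or 2), *Klf15* in 3 (up to 0.131, without WT replicate 2 or 3 or CCL19-KI replicate 1) and *Cebpb* in 1 (0.0877, without WT replicate 3).

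**Figure D3:**
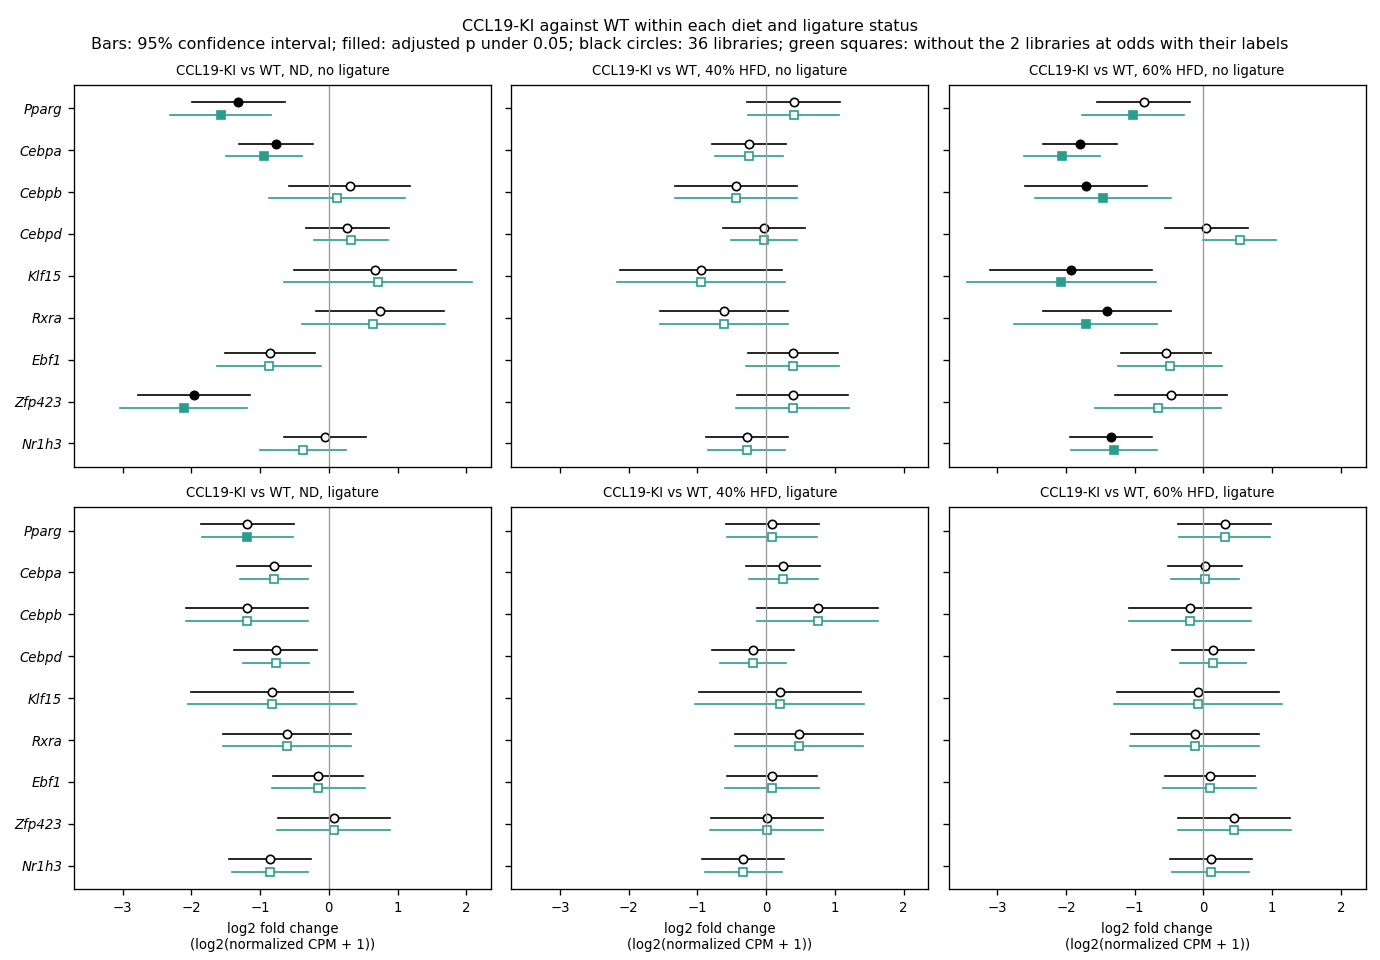
Log2 difference of each factor, CCL19-KI minus WT, within each of the 6 combinations of diet and ligature, with 95% intervals; circles are fits on all 36 libraries, squares are fits without the 2 libraries at odds with their labels, and filled symbols passed a limma adjusted p of 0.05. Filled symbols on all libraries appear in unligatured mice on ND (*Zfp423* -1.96, *Pparg* -1.32, *Cebpa* -0.76) and on 60% HFD (5 factors, led by *Cebpa* at -1.80).

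In the other 4 combinations limma and edgeR each called 0 of 9. In ligatured mice on ND, where 1.03% of genes were called (0.118% lower), 5 factors had an unadjusted p under 0.05, as had 2257 of the 17852 genes. *Pparg* was 135, 52.2 and 99.8 with the knock-in, against 294, 210.4 and 136 in WT mice (-1.18, limma adjusted p = 0.0739), the highest CCL19-KI value lying just under the lowest WT value. It was called without the 2 libraries at odds with their labels (adjusted p = 0.0354, with 0.476% of genes lower), though neither is in these groups. Of the 5 skeletal muscle markers 4 were higher in CCL19-KI mice here both ways, with sums of 68.5 to 451 normalized CPM against 44.1 to 116. No other marker list had a call, and the part of muscle RNA was not tested. *Cebpd* was 54.3, 64.2 and 58.1 against 99.98, 118 and 87.2, without overlap (-0.77, limma adjusted p = 0.226). On 40% HFD the background was 0.0056% of genes without and 0.0112% with ligature, and on 60% HFD with ligature it was 0.0112%. In these 3 comparisons 0 of 9 had an unadjusted p under 0.05, beside 1185, 568 and 443 of the 17852 genes. *Cebpa* in unligatured mice on 40% HFD, for instance, was 258, 308 and 210.1 in CCL19-KI and 379.6, 243 and 305 in WT mice, which overlapped.

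Whether the genotype difference itself changed was tested directly. For 40% HFD minus ND, 60% HFD minus ND and ligature minus none, limma and edgeR each called 0 of 9, with 4, 2 and 2 factors at an unadjusted p under 0.05 and smallest limma adjusted p of 0.232, 0.098 and 0.310. The backgrounds by adjusted p were 0%, 0.476% and 0.0056% of genes. By unadjusted p under 0.05 they were 1964, 3988 and 1925 of the 17852 genes tested. *Pparg* was called without the 2 libraries at odds with their labels for 40% HFD minus ND (1.62, limma adjusted p = 0.0276, against 0.246% of genes higher) and *Cebpa* for ligature minus none (0.91, adjusted p = 0.0453, against 0.342% higher). Those tests average over the other factor of the design. In unligatured mice alone, the genotype difference of *Pparg* on 40% HFD minus that on ND was 1.72 (limma adjusted p = 0.0472) with all libraries and 1.97 (adjusted p = 0.0201) without the 2. This difference was not a planned test. It was picked because *Pparg* had been seen to separate these diets in opposite directions in the genotypes. Its adjusted p does not allow for that choice.

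Ligature moved 1 factor when averaged over genotype and diet. *Cebpd* was higher in ligatured mice, with a log2 difference of 0.62 (SE 0.12, 95% interval 0.37 to 0.86, limma adjusted p = 0.0234), a fold of 1.53. It was 1 of 9 called higher, against 0.286% of all genes tested (0.325% in either direction), and the factors' median was 0.23 beside -0.02 over all genes. *Cebpd* stood at 0.54 (limma adjusted p = 0.0167) without the 2 libraries at odds with their labels, where 0.28% of genes were higher. The rise was widest in ND-fed WT mice, where *Cebpd* was 99.98, 118 and 87.2 normalized CPM with ligature (mean 102 ± 15.4, SD, n = 3) and 43.1, 44.1 and 35.4 without (mean 40.9 ± 4.77, SD, n = 3). These groups were far apart. In ND-fed CCL19-KI mice the values were 54.3, 64.2 and 58.1 with and 51.7, 50.8 and 45.2 without ligature, also without overlap. In WT mice on 40% HFD they were 47.0, 51.6 and 73.1 against 31.9, 46.7 and 31.2, without overlap. In CCL19-KI mice on 40% HFD they were 40.1 to 61.8 (median 47.5) against 28.3 to 48.2 (median 31.9), which overlapped. In WT mice on 60% HFD they were 38.5, 47.5 and 40.5 against 19.5, 32.8 and 41.4, and in CCL19-KI mice on 60% HFD 43.9, 41.4 and 55.0 against 38.6, 48.7 and 15.2, with overlap in each. No marker list had a gene called for ligature. Even so, the *Cebpd* call was lost in 3 of 15 settings, with a log2 difference of 0.54 to 0.69 over all of them. It was lost with the adipocyte level as a covariate and with both the adipocyte and hepatocyte levels as covariates. It was also lost without the 4 libraries highest in hepatocyte markers.

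*Pparg* (0.51, limma adjusted p = 0.0868) and *Ebf1* (0.38, adjusted p = 0.159) did not pass for ligature. CCL19-KI mice on 60% HFD showed the most factors whose groups were apart. There 6 of 9 factors had every ligatured mouse above every unligatured mouse, as did 12.4% of all genes, and 7 of 9 did without the 2 libraries, as did 22.9% of genes. *Cebpa* was 274, 278 and 253 with ligature and 55.0, 101 and 128 without. *Nr1h3* was 67.8, 77.2 and 80.5 against 25.2, 41.0 and 29.4. *Ebf1*, an early B-cell factor that is also active in fat, was 114, 66.7 and 116 against 56.3, 65.2 and 52.4. These ligatured groups lay above the unligatured ones. The hepatocyte sums were 3193 to 23830 normalized CPM with and 1034 to 1807 without ligature, and their part in this was not tested. The unligatured group also held the epididymis and germ cell RNA described above, with a mean log2 epididymis level of 7.64 in replicate 2. Its replicate 3 was at odds with its label. The part of this RNA was not tested either.

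The targets and partners of the factors were counted in lists. Of 21 PPARγ target genes, 6 were higher and 3 lower on 60% HFD than on ND, where 10.2% of all genes were higher and 8.4% lower. *Aqp7*, the glycerol channel of adipocytes (1.00), and *Gpd1*, a glycerol phosphate dehydrogenase (0.88), were among those that rose, while *Cfd*, the adipokine adipsin (-2.72), and *Retn*, the adipokine resistin (-0.94), were among those that fell. On 40% HFD 3 of 21 were higher and 0 lower (5.36% and 3.85% of all genes), with *Aqp7* at 0.77, *Mgll*, a monoglyceride lipase, at 0.60 and *Angptl4*, an inhibitor of lipoprotein lipase, at 0.59. For CCL19-KI against WT 1 was lower (0.174% of all genes), *Adipoq*, at -1.75, which is the knock-in locus itself. In unligatured CCL19-KI mice 8 of 21 were lower on ND, beside 9.63% of all genes, and 6 of 21 on 60% HFD, beside 8.06%, and 0 were higher. These counts, higher and lower, were without the 2 libraries 5 higher and 2 lower on 60% HFD, 3 and 0 on 40% HFD, 0 and 5 for genotype, 0 and 12 on ND and 0 and 8 on 60% HFD without ligature. The shares of all genes were then 8.15% higher and 6.55% lower on 60% HFD, 4.45% and 3.3% on 40% HFD, 3.74% lower for genotype, and 12.2% and 8.25% lower for genotype on ND and on 60% HFD without ligature. Of these 21 genes 7 are also among the adipocyte markers.

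Of 9 LXR targets, *Pltp* (0.82) and *Lpcat3* (0.52) were higher on 60% HFD, *Scd1* (0.85) on 40% HFD and *Abca1*, the cholesterol exporter, with ligature (0.39, limma adjusted p = 0.032), a call lost without the 2 libraries (adjusted p = 0.050). Of 12 RXR family members and partner receptors, *Ppara*, the fatty acid receptor of liver (1.77), and *Thrb* (0.50) were higher on 40% HFD. *Thra* (-0.32) and *Rarb* (-0.38) were lower on 60% HFD. Of 14 coregulators of nuclear receptors, *Ncoa2* was higher on both HFDs (0.26 and 0.25) and *Prdm16* on 60% HFD (0.58). Of 14 other factors that promote adipogenesis, *Egr2* (1.13) was higher and *Ebf2* (-0.50) and *Nfia* (-0.25) lower on 60% HFD, and *Klf5* (-0.58) was lower on 40% HFD. Of 10 factors that oppose it, 0 were called for diet, genotype or ligature. The calls of *Ppara* (adjusted p = 0.050), *Thra*, *Rarb*, *Ebf2*, *Nfia* and *Klf5* were lost without the 2 libraries. Calls also appeared on 60% HFD without the 2 libraries, with 1 of the 12 RXR family members and partners higher and 1 of 14 coregulators lower. Of 8 glucocorticoid-induced genes, *Fkbp5* (-0.76) and *Zbtb16* (-0.64) were lower on 60% HFD and 0 were called for genotype or ligature. The call of *Fkbp5* was lost without the 2 libraries, and *Per1* was then called lower (-0.42). With all libraries, the shares of all genes were 10.2% higher and 8.4% lower on 60% HFD and 5.36% and 3.85% on 40% HFD. With ligature 0.286% were higher.

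The same lists were counted for genotype in unligatured mice. On ND 6.92% of all genes were higher and 9.63% lower (6.81% and 12.2% without the 2 libraries). On 60% HFD 8.73% were higher and 8.06% lower (10% and 8.25%). A count of 1 gene in a list is near these shares. On ND 5 of 14 coregulators were lower in CCL19-KI mice (2 of 14 without the 2 libraries), 3 of 14 other factors that promote adipogenesis were lower both ways, and 1 of 10 that oppose it was higher (2 of 10). Of the RXR family members and partners 1 was higher and 1 lower. Of the LXR targets 1 was lower and of the glucocorticoid-induced genes 1 was higher. All of these held both ways. On 60% HFD 1 of the 14 factors that promote adipogenesis was higher and 4 were lower (2 and 5 without the 2 libraries). Of the 12 RXR family members and partners 4 were lower (3 of 12). Of the 10 factors that oppose adipogenesis 2 were higher and 1 lower (0 and 1), and of 9 LXR targets 1 was higher and 2 lower (0 and 0). Coregulators had 0 calls both ways, and 1 of 8 glucocorticoid-induced genes was lower (0 of 8).

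Levels of the factors were set beside marker levels across the libraries, which is a description of shared variation. Over 36 libraries, *Ebf1* (Pearson r = 0.88, Spearman rho = 0.88), *Pparg* (0.80 and 0.79), *Zfp423* (0.77 and 0.68) and *Cebpa* (0.60 and 0.58) followed the adipocyte level. Permutation p-values adjusted over 27 correlations were 5.4e-05 for the first 3, from the smallest p that 100000 permutations can give, and 0.00081 for *Cebpa*. Without the 2 libraries farthest from the median r was 0.85, 0.72, 0.73 and 0.68, and without the 2 at odds with their labels it was 0.89, 0.80, 0.77 and 0.61. For deviations from the group means r was 0.79, 0.77, 0.80 and 0.29. Over the 30 libraries with hepatocyte signal, which hold neither library at odds with its label, *Rxra* (r = 0.93, rho = 0.97), *Klf15* (0.83 and 0.85), *Cebpb* (0.70 and 0.74) and *Nr1h3* (0.57 and 0.54) followed the hepatocyte level, and without the 2 farthest r was 0.92, 0.82, 0.68 and 0.68. Their adjusted permutation p-values for r ran up to 0.00327. Taken over all 36 libraries, r of their deviations from the group means was 0.66, 0.65, 0.53 and 0.49. *Cebpa* also had r = 0.51 with the hepatocyte level in the 30 libraries (adjusted permutation p = 0.0131, 0.51 without the 2 farthest). Its rho there was 0.31 (adjusted permutation p = 0.198), and r of the deviations over all 36 libraries was 0.20. *Cebpd* followed neither list upward (r = -0.34, rho = -0.55 with the hepatocyte level). The adipocyte list holds none of the 9 factors.

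**Figure D4:**
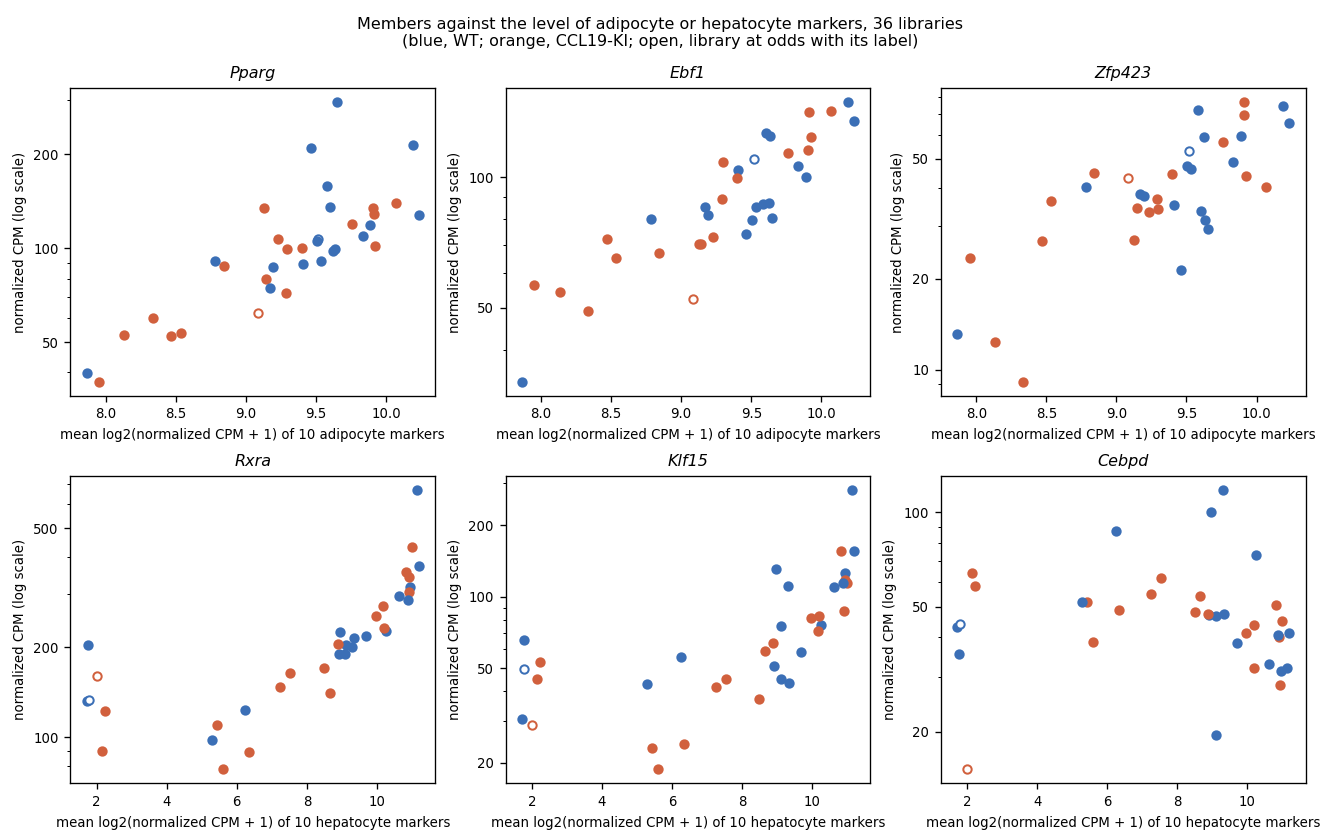
Level of factors in each library against the mean log2 level of the adipocyte or hepatocyte markers, with each point a library and open points the 2 libraries at odds with their labels. *Ebf1* and *Pparg* rise with the adipocyte level (r = 0.88 and 0.80 over 36 libraries), and *Rxra* and *Klf15* rise with the hepatocyte level (r = 0.93 and 0.83 over the 30 libraries above the gap).

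The genes most alike in pattern to each factor, by Pearson r over the 36 libraries, differed from factor to factor. They were *Rasa3* (0.904), *Lipe* (0.886) and *Sowahc* (0.881) for *Pparg*. For *Cebpa* they were *Mccc2* (0.920), *Uck1* (0.904) and *Miga2* (0.886). For *Cebpb* they were *Cat* (0.846), *Eci2* (0.844) and *Isoc2a* (0.842), and for *Cebpd* *Slc43a1* (0.812), *Tgfbr3* (0.792) and *Xdh* (0.785). *Cebpd* thus had the lowest best match of the 9. *Klf15* was closest to *Mocs1* (0.960), *Papss2* (0.940) and *Rassf6* (0.935), and *Rxra* to *Mavs* (0.966) and *Stard7* (0.965). *Ebf1* was closest to *Utrn* (0.915), *Ctps2* (0.914) and *Eepd1* (0.901), and *Zfp423* to *Epb41l2* (0.958), *Ehd2* (0.951) and *Fsd2* (0.950). *Nr1h3* was closest to *Gdi2* (0.907), *March5* (0.894) and *Etfa* (0.893).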

How the data were processed

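RNA-seq libraries were made from eWAT by rRNA depletion with a directional kit and sequenced as paired ends. The authors deposited 1 table of normalized signal per gene, that is, edgeR-normalized CPM. The submitters' notes name Trimmomatic 0.38, Bowtie2, RSEM 1.3.0 and edgeR, and the build GRCm39, while the paper's methods name mm10, and the annotation release is not given in the sources used here. Gene symbols matched 24626 of 24750 IDs. Positions (GRCm38) come from an annotation of another build than the notes name.

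Dividing each deposited value by that of 1 read (0.0472 to 0.0834) gave whole numbers for 100.0% of values, within 0.01, and thus 11962228 to 21581595 reads per library. Limma 3.58.1 (R 4.3.3; lmFit, eBayes with trend) was fitted on log2(normalized CPM + 1) to all 36 mice with 12 group means, over the 17852 genes that reached 1 normalized CPM in 3 or more libraries. A call is a Benjamini-Hochberg adjusted p under 0.05 over all these genes. Fold changes on this scale understate those of low genes such as *Cebpb*. EdgeR 4.0.16 on recovered reads, other pseudocounts, filters and scalings, marker covariates and left-out libraries were alternatives, and those concerning the 2 libraries at odds with their labels, the 4 highest in hepatocyte and the 2 highest in epididymis markers, and both covariates together, were chosen after seeing the data. Tests were tried on simulated data. Correlations used 100000 permutations (scipy 1.17.1).

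The genes and lists were chosen with earlier results of these data known. Of each list up to 4 called genes with the largest log2 difference were to be named, and 3 genes most alike to each factor, of which 1 is not reported here. Groups follow the sample labels, which mark a ligature on 18 of 36 mice, although the series' design text gives it to all. Replicate numbers did not pair mice. The median correlation of deviations from group means over 18 same-numbered WT and CCL19-KI pairs was -0.028, and 4 of 18 exceeded 0.1. No libraries were duplicates.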

Additional observations from a re-analysis of the deposited data

Results flagged for a closer look

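In 11 comparisons of effects all mice of 1 contrast moved one way and all mice of another contrast the other way, so the difference of the 2 log2 effects was tested in the limma fit and adjusted over all genes. Several of these share mice, so they are not separate results. They were picked by this separation in the same mice that were then tested. The adjustment over genes does not allow for that search, so the adjusted p-values below overstate the evidence. On 60% HFD against ND in CCL19-KI mice, *Cebpa* rose by 0.67 with ligature and fell by 1.04 without, a difference of 1.71 (adjusted p = 0.00886, and 1.97 with 0.00153 without the 2 libraries at odds with their labels). *Nr1h3* did likewise, at 0.70 and -1.15, a difference of 1.85 (adjusted p = 0.00991, and 1.81 with 0.00682 without them). Hepatocyte sums in the unligatured CCL19-KI mice were 1034 to 1807 on 60% HFD and 1192 to 35080 on ND, and their part was not tested. The unligatured CCL19-KI mice on 60% HFD also held epididymis and germ cell RNA, whose part was not tested either.

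On 40% HFD against ND *Pparg* was 0.64 in unligatured CCL19-KI mice and -1.08 in unligatured WT mice, a difference of 1.72 (adjusted p = 0.0472, and 1.97 with 0.0201 without the 2 libraries). Against ligatured WT mice the difference was 1.46 (adjusted p = 1). *Zfp423* differed by 2.01 between the ligature effects in CCL19-KI mice on 60% HFD (0.78) and in ND-fed WT mice (-1.23), with adjusted p = 0.0333 (2.35 and 0.0140 without the 2 libraries). Its 40% HFD effect differed by 1.97 between ligatured CCL19-KI and unligatured WT mice (adjusted p = 0.0676, and 2.12 with 0.0273).

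*Cebpb* differed by 2.46 between the genotype effects on 40% HFD with ligature (0.75) and on 60% HFD without (-1.71), with adjusted p = 0.0520 (2.21 and 0.0449 without the 2 libraries). The difference from the genotype effect on ND with ligature was 1.94 (adjusted p = 0.365), which is the same quantity as the difference between the 40% HFD effects of ligatured CCL19-KI and WT mice, 1.94. The ligature effect on *Cebpb* differed by 1.49 between ND-fed WT and CCL19-KI mice (adjusted p = 0.123). The genotype effect on *Cebpd* differed by 1.04 between unligatured and ligatured mice on ND (adjusted p = 0.117, and 1.10 with 0.0502 without the 2 libraries). Groups held 3 mice, so no library was tested as an outlier of its group.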

How the results depend on the processing

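Values are the number of the 9 factors called, or, for a named gene, its log2 difference, and the comparisons are named as diets, genotype (CCL19-KI against WT), ligature, and change in genotype effect. A pseudocount of 5 or no filter each gave 1 for 60% HFD against ND. Sample quality weights, whose estimation stopped short of its tolerance, gave 2 for 40% HFD against ND, 4 for genotype, 3 for ligature, 6 for genotype on ND without and 7 with ligature, and 4, 3 and 2 for the change in genotype effect with 40% HFD, 60% HFD and ligature; *Klf15* then read -0.030 for 40% HFD and *Ebf1* 0.055 for 60% HFD. The study's criteria (p at most 0.05, ratio at least 1.5 or at most 0.67) gave 1 for 60% HFD (9.88% of genes), 0 for genotype (0.454%), 5 for genotype on ND with ligature (8.44%), and 4, 2 and 2 for the changes (6.2%, 14.4% and 4.54%). Fits on the groups compared alone gave 0 for genotype on ND and 2 on 60% HFD, both without ligature, and fits on 18 mice of 1 ligature state gave 2 there and 1 on ND with ligature.

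The adipocyte covariate gave 1 for 40% HFD, 0 for ligature, and 0 and 1 for genotype on ND without and with ligature; *Ebf1* read -0.017 for 40% HFD and 0.059 for genotype, *Zfp423* 0.030 for genotype and -0.077 for ligature, *Cebpb* 0.21 and *Klf15* 0.27 for ligature. The hepatocyte covariate gave 3 for ligature, and 0 and 1 for genotype without ligature on ND and 60% HFD; for 40% HFD *Cebpb* read -0.18, *Klf15* -0.59, *Rxra* -0.21 and *Nr1h3* -0.16, and for 60% HFD *Cebpb* -0.24, *Rxra* -0.29 and *Ebf1* 0.18. Both covariates gave 1 for 40% HFD, 4 for 60% HFD, 0 for genotype and ligature, and 1 and 0 for genotype without ligature on ND and 60% HFD; *Klf15* read -0.31, *Rxra* -0.080 and *Nr1h3* -0.15 for 40% HFD, *Cebpb* -0.15, *Rxra* -0.25 and *Ebf1* 0.062 for 60% HFD, *Pparg* 0.077 for 60% against 40% HFD, *Ebf1* 0.019 and *Zfp423* 0.0080 for genotype, and *Cebpb* 0.099, *Klf15* 0.069 and *Zfp423* -0.052 for ligature. The epididymis covariate gave 2 for genotype on 60% HFD without ligature.

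Without the 2 libraries at odds with their labels the counts were 1 for 40% HFD, 1 for 60% against 40% HFD, 3 for genotype, 1 for genotype on ND with ligature, and 1 and 1 for the changes with 40% HFD and ligature, and *Klf15* read 0.013 for ligature. Without the 4 libraries highest in hepatocyte markers, which leaves 1 mouse assumed to vary like the others in unligatured WT mice on 40% HFD, they were 0 for genotype and ligature and 1 and 2 for genotype without ligature on ND and 60% HFD, with *Cebpb* at 0.20, *Klf15* at 0.24 and *Rxra* at 0.025 for ligature. Without the 2 highest in epididymis markers they were 2 for genotype and 1 for genotype on ND with ligature and for the change with 40% HFD. The cause of these moves was not tested.

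Leaving out 1 mouse gave 0 to 1 for 40% HFD, 1 to 2 for 60% HFD, 0 to 1 for 60% against 40% HFD, 1 to 3 for genotype, 1 to 2 for ligature, 0 to 5 on ND and 2 to 5 on 60% HFD for genotype without ligature, 0 to 1 on ND with ligature, 0 to 2 and 0 to 1 for the changes with 40% and 60% HFD, and 0 elsewhere; for ligature *Cebpb* ran from -0.10 to 0.045 and *Klf15* from -0.16 to 0.069. The replicate block changed no count of factors called (2 for 60% HFD, 1 each for genotype and ligature), and the replicate numbers did not pair the mice. *Cebpd* kept its 60% HFD call in all 15 settings (-0.74 to -0.53), *Cebpa* its genotype call in 13 and *Cebpd* its ligature call in 12. With 3 mice a group, differences within 1 diet and ligature state were of low power, and exact permutation could not go below 0.1.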
